A study of Mus musculus with 12 samples.

Results

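The miR-23/27/24 clusters are a pair of short runs of miRNA genes, Mir23a/Mir27a/Mir24-2 and Mir23b/Mir27b/Mir24-1, and the rows of their mature products were followed here across cardiac mitochondria of db/db and WT mice. The 10 members were taken by name: mmu-miR-23a-3p, mmu-miR-23a-5p, mmu-miR-23b-3p, mmu-miR-24-3p, mmu-miR-24-1-5p, mmu-miR-24-2-5p, mmu-miR-27a-3p, mmu-miR-27a-5p, mmu-miR-27b-3p and mmu-miR-27b-5p, written below without the prefix of the species. All 10 were found among the 932 rows of the deposited table, and all 10 had the mean of at least 1 RPM (reads per 1000000 reads of the listed rows) required for testing, which 646 rows met. The study sequenced small RNA of mitochondrial preparations in 6 db/db and 6 WT samples of mouse heart, and asked how the miRNAs of this fraction differ in the diabetic model. db/db mice carry a leptin receptor mutation that removes its signalling form in every tissue, and become obese and diabetic. The labels give genotype and tissue only, with no age, sex, strain of the WT mice or treatment, and whether the numbered samples are different animals is not said. The spread behind every p-value is therefore that of the samples and may be technical. No other fraction is among the libraries, and whether a miRNA is inside mitochondria was not tested.

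A miRNA gene is transcribed as a hairpin whose arms are cut out as the 5p and 3p products, and one of them, the guide arm, is usually kept by Argonaute proteins while the other is degraded. The guide pairs with messenger RNAs mainly through its seed, bases 2 to 8, and represses them. In both clusters the 3p arms are the guides. miR-23 and miR-27 are known for promoting the growth of vessels, miR-23a for a pro-hypertrophic action in mouse heart muscle cells through the ubiquitin ligase MuRF1, miR-24 for repressing the junction protein junctophilin-2 in heart muscle and for acting in endothelium, and miR-27 for restraining fat cell formation.

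Mature sequences, shown because they decide which reads can be told apart, were found in the RefSeq miRNA table (build GRCm38.p6) for 9 of the 10 members, all but miR-23b-3p. They are given 5′ to 3′ with the seed in capitals, the guide arms first.
miR-24-3p: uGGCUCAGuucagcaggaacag
miR-23a-3p: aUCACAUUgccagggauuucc
miR-27a-3p: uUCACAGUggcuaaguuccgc
miR-27b-3p: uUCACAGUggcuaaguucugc
miR-24-2-5p: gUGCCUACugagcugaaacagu
miR-24-1-5p: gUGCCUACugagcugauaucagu
miR-23a-5p: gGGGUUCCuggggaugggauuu
miR-27a-5p: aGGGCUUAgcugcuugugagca
miR-27b-5p: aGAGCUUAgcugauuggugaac

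miR-27a-3p and miR-27b-3p share their seed and differ at 1 of 21 bases, C19U, counted from the 5′ end of miR-27a-3p. miR-24-2-5p and miR-24-1-5p, of 22 and 23 bases, share theirs. Set side by side from the 5′ end with no gap allowed, they differ at 5 of the 22 positions compared, the first of which is A17U. miR-27a-5p and miR-27b-5p differ in the same way at 8 of 22 positions, of which G3A lies in the seed. In both 5p pairs an added base shifts the positions after it, so these counts exceed the number of changed bases. Among the 635 named rows with a sequence, no row outside these pairs shared a seed with any of the 9 members. miR-23b-3p had no sequence and was left out of this comparison, but the Mir23b hairpin holds UCACAUU, the seed of miR-23a-3p. The hairpins of Mir24-2 and Mir24-1 hold the same miR-24-3p, in capitals below, so the row of miR-24-3p adds up both clusters and its reads cannot be assigned to either, whereas the 5p arms tell the hairpins apart.
Mir24-2: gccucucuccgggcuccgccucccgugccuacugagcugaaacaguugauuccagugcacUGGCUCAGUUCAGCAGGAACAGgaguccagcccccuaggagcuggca
Mir24-1: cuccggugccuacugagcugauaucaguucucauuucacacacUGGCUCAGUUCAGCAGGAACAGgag

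In the same build the Mir23a cluster spans 404 bases on the plus strand at chr8:84208518-84208921, and the Mir23b cluster spans 792 bases on the plus strand at chr13:63300484-63301275. In the GENCODE M21 annotation of GRCm38 no exon of another gene overlapped Mir23a or Mir27a, and an exon of the long noncoding RNA Gm26532 overlapped part of Mir24-2 on the same strand. All hairpins of the Mir23b cluster lie inside the protein-coding gene 2010111I01Rik on its strand, Mir23b outside its exons and Mir27b and Mir24-1 within exons of some of its transcripts, and Fancc runs over them on the other strand. The deposited values were made on GRCm39, so these positions describe the genes and were not joined to the data by coordinate. Other rows from these places in the genome, which are not members, were scarce. miR-23b-5p was above 0 in 3 of 6 db/db and 3 of 6 WT libraries with at most 18.3 RPM. miR-3074-5p, from the strand opposite miR-24, was above 0 in 2 of 6 and 2 of 6. It reached at most 17.9 RPM in db/db and 7.63 RPM in WT libraries.

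Recovered reads per library ranged from 412749 to 1382046 in db/db and from 551591 to 962697 in WT libraries. A value of 0 was taken to allow up to 3 reads, a floor of 2.17 to 7.27 RPM, and the floors and counting intervals given here leave out every other source of error, PCR copies included. Among heart muscle markers, miR-133a-3p averaged 341150 RPM in db/db and 323870 RPM in WT libraries, and miR-1a-3p averaged 53914 RPM in db/db and 62696 RPM in WT libraries. db/db library 6 and WT library 4 stood farthest from the rest, with median root-mean-square log2 distances to the other libraries of 1.83 and 1.88 against 1.56 to 1.76 for the remaining libraries, and were the shallowest of their genotypes. Values that moved by over 1.5 times without this pair are given beside the result.

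The 10 members together held 6.51% ± 0.534 of reads in db/db and 7.76% ± 0.746 in WT libraries (SD, n = 6 each). The 5 guide arms made up 98.4% to 98.7% of this in db/db and in WT libraries alike. Leaving out miR-24-3p, which belongs to both, the Mir23a cluster gave 37.1% to 40.5% of the members' reads in db/db and 37.0% to 39.4% in WT libraries. The Mir23b cluster gave 28.3% to 30.1% in db/db and 25.8% to 29.6% in WT libraries. The shares of the clusters overlapped between the genotypes, and so did the total, at 5.88% to 7.15% of reads in db/db and 6.73% to 8.71% in WT libraries.

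Averaged over all libraries, the members spanned levels from 10.8 RPM for miR-23a-5p to 23673 RPM for miR-24-3p. The 9 mature RNAs with a sequence are 21 to 23 bases long and a read covers a whole mature RNA, so levels are compared as RPM. miR-24-3p and miR-23a-3p, the 8th and 9th most abundant rows of the table by mean level, came first and were not ordered between themselves: miR-24-3p was the higher in 3 of 6 db/db and 4 of 6 WT libraries. miR-27b-3p and miR-23b-3p followed, also without a fixed order, miR-27b-3p being higher in 3 of 6 libraries of each genotype. Below them miR-27a-3p, miR-24-2-5p and miR-27a-5p stood in this order in all 12 libraries. miR-27a-5p, miR-24-1-5p, miR-27b-5p and miR-23a-5p had overlapping levels, and each exceeded the next in 3 to 5 of 6 libraries of a genotype.

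**Figure D1:**
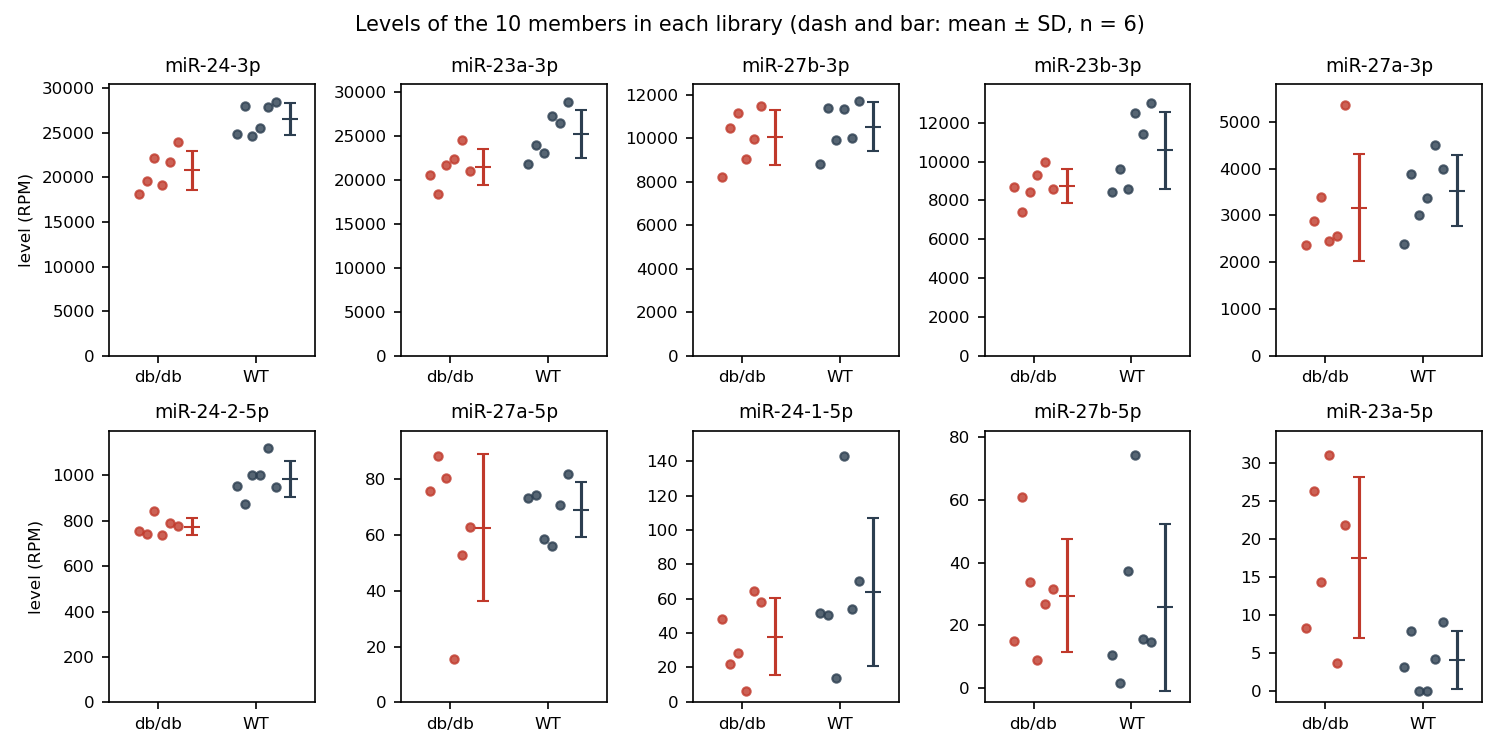
Level in RPM (y axis, linear, a scale of its own for each member) of the 10 members in 6 db/db (red, left) and 6 WT (dark, right) libraries, 1 point a library, with mean ± SD beside the points. The groups separate completely for miR-24-3p and miR-24-2-5p and overlap for the other 8 members.

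The genotypes separated fully for a pair of miR-24 products, and no member passed the test over all rows. The means of miR-24-3p and miR-24-2-5p differed by -21.7% and -21.3% (db/db minus WT, relative to WT), with no overlap between the groups, and those of miR-23a-3p and miR-23b-3p by -15.1% and -17.5% with overlap. The means of miR-27a-3p and miR-27b-3p differed by -10.3% and -4.69%, within the spread of the libraries. None of the 10 members passed limma over all 646 rows, where 1 row (0.155%) was called at an adjusted p under 0.05. At an unadjusted p under 0.05 there were 4 members (8.98% of all rows), 3 with negative values (4.64% of all rows) and 1 with a positive value (4.33% of all rows). With the sample numbers 1 to 3 and 4 to 6 as a factor, a split of the numbering that the labels do not call a batch, 1 member was called, miR-24-3p (limma adjusted p = 0.0480), against 1.55% of all rows. edgeR and DESeq2 on the recovered reads also called 0 members, against 0.464% of the 646 rows and 4.71% of the 170 rows to which DESeq2 gave an adjusted p, 6 of them members, and at an unadjusted p under 0.05 edgeR had 2 members (24.6% of all rows) and DESeq2 3 (6.97% of all rows). Groups did not overlap for 2 members, both with the lower values in db/db libraries, against 4 such rows (0.619%) among all 646. For higher values in db/db libraries this background was 0.31%, and for either direction 0.929%. Among the 147 rows averaging 100 RPM or more, 2.04% lay wholly lower in db/db libraries and 53.1% had a log2 fold change below 0. Of the members 8 had log2 fold changes below 0 with a median of -0.25, beside 52.3% of all rows and a median of -0.04. In bulk preparations such as these, fewer cells of a type and less of the RNA per cell cannot be told apart.

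**Figure D2:**
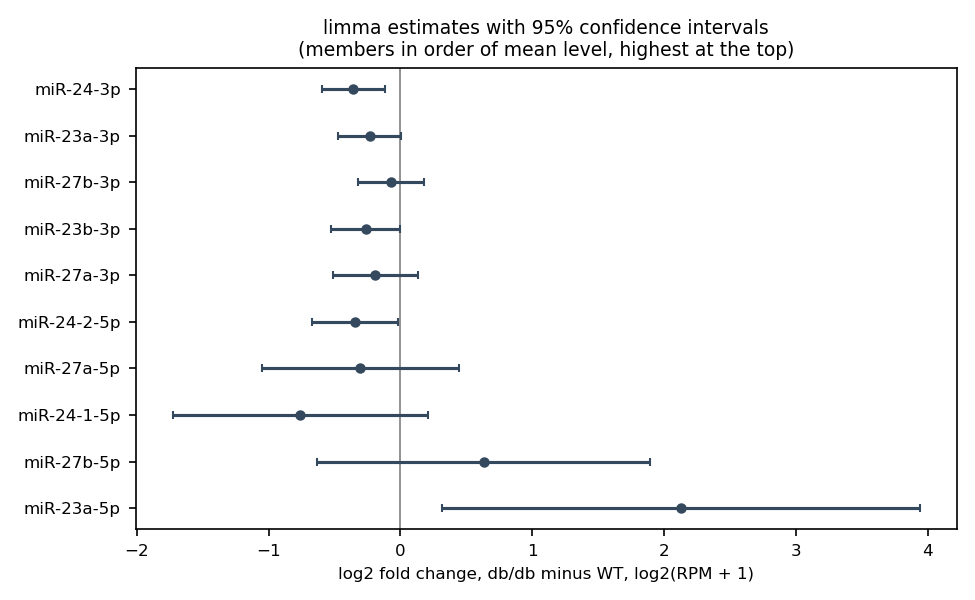
log2 fold change of db/db minus WT on the log2(RPM + 1) scale (x axis) for each member (y axis, highest mean level at the top), with limma 95% confidence intervals. The estimates of the 5 guide arms lie below 0 with narrow intervals, of which those of miR-23a-3p, miR-27a-3p and miR-27b-3p include 0, and the scarce 5p arms have wide ones, with miR-23a-5p at 2.13.

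mmu-miR-24-3p, the guide made by both clusters, ranged from 18118 to 24005 RPM with a median of 20631 RPM in db/db libraries, against 24588 to 28435 RPM with a median of 26728 RPM in WT libraries. Every db/db library lay below every WT library. The averages were 20794 ± 2201 RPM in db/db and 26552 ± 1759 RPM in WT libraries (SD, n = 6 each), a difference of -21.7%. The log2 fold change was -0.36 with a standard error of 0.12 and a 95% interval of -0.59 to -0.12 (limma adjusted p = 0.198, unadjusted p = 0.00379), the 12th smallest p of the 646 rows. Without db/db library 6 and WT library 4 it was -0.41 (limma adjusted p = 0.198). It shrank to -0.16 after quantile normalisation (limma adjusted p = 0.661). At this depth the counting interval of a miR-24-3p value was at most 1.95% to either side. The intervals of the nearest libraries of the genotypes still overlapped, at 23540 to 24476 RPM in db/db library 6 and 24250 to 24930 RPM in WT library 3.

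mmu-miR-24-2-5p, the other arm of the Mir24-2 hairpin, ranged from 739 to 842 RPM with a median of 767 RPM in db/db libraries, against 876 to 1120 RPM with a median of 978 RPM in WT libraries. Again every db/db library lay below every WT library, on 321 to 1090 reads in db/db and 553 to 1078 reads in WT libraries. The counting interval of a miR-24-2-5p value was 5.98% to 11.1% to either side. The intervals of db/db library 3, 778 to 909 RPM, and WT library 2, 805 to 952 RPM, overlapped. It averaged 774 ± 38.3 RPM in db/db and 984 ± 80.9 RPM in WT libraries (SD, n = 6 each), a difference of -21.3%. On the log2 scale this was -0.34 with a standard error of 0.16 (limma adjusted p = 0.543). Its variation among the db/db libraries, 4.95% of the mean, was the smallest of any member in either genotype. The proportion of the arms overlapped between the genotypes: there were 26.8 ± 2.29 reads of miR-24-3p for each read of miR-24-2-5p in db/db and 27.1 ± 3.06 in WT libraries (SD, n = 6 each), a ratio that was looked at after the values were seen and was not tested.

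miR-24-1-5p, the 5p arm of the other miR-24 hairpin, was far scarcer, at 6.46 to 64.4 RPM with a median of 38.3 RPM in db/db libraries and 13.7 to 143 RPM with a median of 52.9 RPM in WT libraries. The groups overlapped. The highest WT value belonged to WT library 4, and the lowest value of all, in db/db library 4, rested on 5 reads. The log2 difference was -0.76 with a standard error of 0.48 (limma adjusted p = 0.717). It lay between -0.34 without db/db library 4 and -1.13 without WT library 3, and at -0.09 among the libraries numbered 1 to 3 and -1.43 among those numbered 4 to 6. Taken in linear terms miR-24-2-5p was 12.2 to 114 times as abundant as miR-24-1-5p in db/db and 7 to 72.9 times as abundant in WT libraries, and the log2 ratio of these arms differed by 0.42 (exact permutation test, two-sided, adjusted p = 0.712 over 6 ratios). With 1 library left out this ratio differed by between 0.015 without db/db library 4 and 0.79 without WT library 3.

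mmu-miR-23a-3p ranged from 18361 to 24530 RPM with a median of 21377 RPM in db/db libraries, against 21746 to 28816 RPM with a median of 25204 RPM in WT libraries. Each of the 6 db/db values was under the median of WT, and 4 were under the lowest WT value. The averages were 21408 ± 2046 RPM in db/db and 25207 ± 2714 RPM in WT libraries (SD, n = 6 each). On the log2 scale they differed by -0.23 with a standard error of 0.12 (limma adjusted p = 0.575). Quantile normalisation brought the value to -0.10.

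mmu-miR-23b-3p, its paralogue from the other cluster, ranged from 7395 to 9993 RPM with a median of 8655 RPM in db/db libraries, against 8463 to 13024 RPM with a median of 10502 RPM in WT libraries. Here too each of the 6 db/db values was under the median of WT, while 3 WT libraries were above every db/db library. The averages were 8738 ± 875 RPM in db/db and 10594 ± 1984 RPM in WT libraries (SD, n = 6 each). The log2 difference was -0.26 with a standard error of 0.13 (limma adjusted p = 0.551). The difference was -0.12 among libraries numbered 1 to 3 and -0.40 among those numbered 4 to 6.

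mmu-miR-27b-3p ranged from 8215 to 11489 RPM with a median of 10212 RPM in db/db libraries, against 8823 to 11714 RPM with a median of 10698 RPM in WT libraries. The groups covered nearly the same range. Its log2 fold change of -0.07, with a 95% interval of -0.33 to 0.18 (limma adjusted p = 0.827), was the one nearest 0 among the members.

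mmu-miR-27a-3p, with the same seed, was scarcer, at 2369 to 5352 RPM with a median of 2715 RPM in db/db libraries and 2396 to 4507 RPM with a median of 3625 RPM in WT libraries. The db/db values were mostly low but held the highest value of all, 5352 RPM in db/db library 6, the shallowest library. On the log2 scale the difference was -0.19 with a standard error of 0.16 (limma adjusted p = 0.717). With 1 library left out it lay between -0.35 without db/db library 6 and -0.11 without WT library 5 (limma adjusted p = 0.541 and 0.799), and without db/db library 1 it was -0.12. Without db/db library 6 and WT library 4 together it was -0.36 (limma adjusted p = 0.515).

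The remaining 5p arms were scarce, with at most 88.4 RPM in db/db and 81.7 RPM in WT libraries. miR-27a-5p ranged from 15.5 to 88.4 RPM with a median of 69.3 RPM in db/db libraries and from 56.2 to 81.7 RPM with a median of 71.9 RPM in WT libraries. It was level apart from db/db library 4, the lowest, without which the log2 fold change was 0.048 in place of -0.31 with a standard error of 0.37 (limma adjusted p = 0.733). miR-27b-5p ranged from 9.05 to 60.8 RPM with a median of 29.1 RPM in db/db libraries and from 1.58 to 74.3 RPM with a median of 15.2 RPM in WT libraries, on 1 to 44 reads a library. Its log2 difference was 0.63 with a standard error of 0.63 (limma adjusted p = 0.717). With 1 library left out it lay between 0.089 without WT library 2, where it rested on 1 read, and 1.06 without WT library 4. It was 1.00 without db/db library 6 and WT library 4 together, 1.63 among the libraries numbered 1 to 3 and -0.37 among those numbered 4 to 6.

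miR-23a-5p, the arm of miR-23a that is normally discarded, was the member with the largest fold. In db/db libraries 1 to 6 it stood at 8.25, 26.3, 14.2, 31.0, 3.62 and 21.8 RPM, against 3.05, 7.89, 0, 0, 4.16 and 9.08 RPM in WT libraries 1 to 6. All 6 db/db libraries were above the WT median and 4 above every WT library, but the groups overlapped. The counts behind these values were 5 to 24 reads in db/db and 0 to 8 reads in WT libraries. The zeros in WT libraries 3 and 4 allow up to 3.74 and 5.44 RPM by the floor of 3 reads, and up to 4.60 and 6.69 RPM by the wider 95% counting interval. Averages were 17.5 ± 10.6 RPM in db/db and 4.03 ± 3.84 RPM in WT libraries (SD, n = 6 each), a ratio of 4.35. The log2 fold change was 2.13 with a standard error of 0.91 on the log2(RPM + 1) scale (limma adjusted p = 0.504, unadjusted p = 0.0223), and 0.92 with a pseudocount of 10 RPM and 3.27 with one of 0.1 RPM.

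Ratios between members hardly depend on the scaling to a library total, and 6 of them were compared on the log2 scale, with 1 RPM added to each level, by an exact permutation test over all assignments of the 12 libraries, where the smallest p possible is 0.00216. None passed after adjustment. The closest was miR-23a-5p over miR-23a-3p, with a mean log2 ratio of -10.44 ± 1.15 in db/db and -12.80 ± 1.46 in WT libraries (SD, n = 6 each), a difference of 2.36 with an exact permutation p = 0.0108 (two-sided, adjusted p = 0.0649), and 5 of 6 db/db libraries above the WT median. Its size depended on the amount added to each level, being 3.51 with 0.1 RPM and 1.15 with 10 RPM (exact permutation adjusted p = 0.0779 and 0.0520). With 1 library left out the difference lay between 1.97 and 2.75, and the exact permutation adjusted p was 0.0390 without db/db library 5 and between 0.0649 and 0.195 without any of the others. Without db/db library 6 and WT library 4 together it was 1.86 (exact permutation test, adjusted p = 0.167). The proportions of paralogues overlapped between the genotypes. miR-23b-3p stood at 38.8% to 42.5% of miR-23a-3p in db/db and 37.3% to 45.8% in WT libraries, with a log2 ratio that differed by -0.03 (exact permutation test, adjusted p = 0.712). miR-27b-3p was 3.36 ± 0.629 times as abundant as miR-27a-3p in db/db and 3.08 ± 0.503 times in WT libraries (SD, n = 6 each). The log2 ratio differed by 0.12 (exact permutation test, adjusted p = 0.712), and by 0.029 without WT library 5, 0.24 without db/db library 6 and 0.27 without db/db library 6 and WT library 4. The 5p arm of miR-27a amounted to 2.09% ± 1.02 of its 3p arm in db/db and 2.03% ± 0.532 in WT libraries, and that of miR-27b to 0.285% ± 0.163 and 0.241% ± 0.235 (exact permutation adjusted p = 0.781 and 0.712). Without db/db library 6 and WT library 4, the log2 ratio differed by -0.04 in place of -0.12 for the arms of miR-27a, by 1.09 in place of 0.70 for those of miR-27b, and by -0.0017 in place of -0.03 for miR-23b-3p over miR-23a-3p. The difference for the arms of miR-27b was 0.14 without WT library 2.

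**Figure D3:**
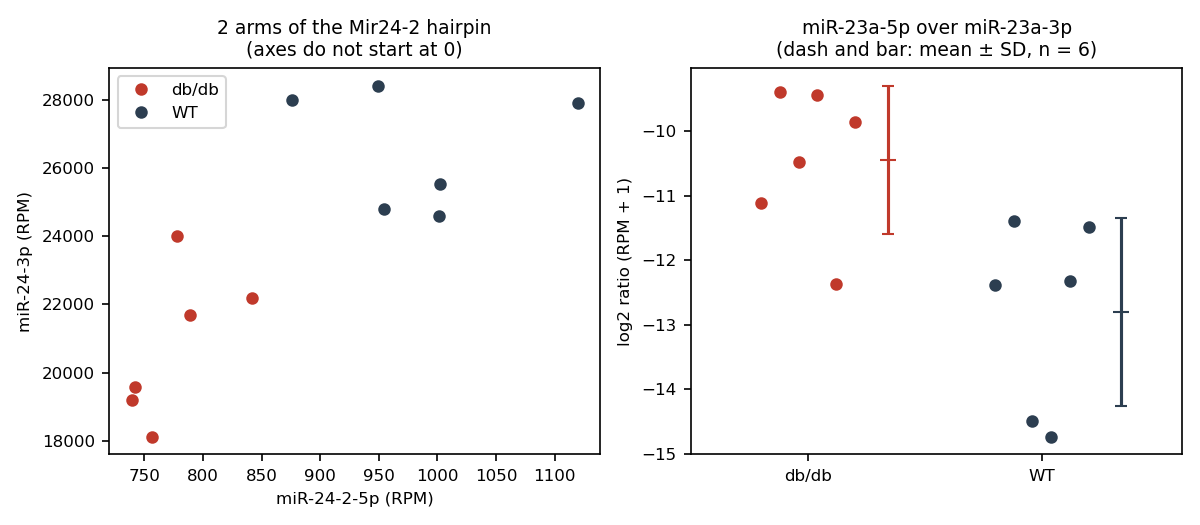
Left, miR-24-3p against miR-24-2-5p in RPM, 1 point a library, where the db/db libraries (red) fill the lower left and the WT libraries (dark) the upper right with no overlap on either axis. Right, log2 ratio of miR-23a-5p over miR-23a-3p by genotype with mean ± SD, where 5 of 6 db/db libraries lie above the WT median.

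Across the 12 libraries, pairs of guide arms of one family from different clusters had r of 0.764 and 0.958, and neighbouring miR-23 and miR-27 guides of one cluster had r of 0.349 and 0.367. The log2 levels of miR-23a-3p and miR-23b-3p, which come from different chromosomes, had a Pearson r of 0.958 (permutation p = 2e-05, adjusted p = 0.0002 over 10 pairs) and a Spearman rho of 0.867 (permutation adjusted p = 0.00485). miR-27a-3p and miR-27b-3p, also from different chromosomes, had an r of 0.764 (permutation adjusted p = 0.0215) and a rho of 0.846 (permutation adjusted p = 0.00485). Without the 2 libraries farthest from the median of the first member named these were 0.927 and 0.928, and with the genotype means removed 0.948 and 0.750. miR-23a-3p and miR-27a-3p, whose hairpins lie 79 bases apart, had an r of 0.349 (permutation p = 0.266, adjusted p = 0.268) and a rho of 0.371 (permutation adjusted p = 0.309). miR-23b-3p and miR-27b-3p, 154 bases apart, had an r of 0.367 (permutation p = 0.243, adjusted p = 0.268), which became -0.0185 without the 2 farthest libraries, and a rho of 0.336 (permutation adjusted p = 0.309). Within a genotype, given as descriptions over 6 libraries with no test, these neighbours had r of -0.149 (miR-23a-3p and miR-27a-3p) and -0.307 (miR-23b-3p and miR-27b-3p) in db/db libraries, against 0.737 and 0.717 in WT libraries. The miR-27 family pair had 0.808 in db/db and 0.664 in WT libraries, and the miR-23 family pair 0.951 in db/db and 0.985 in WT libraries. In WT libraries the neighbours thus had a higher r than the miR-27 family pair, and the order of the pooled values held against both family pairs only in db/db libraries. Without db/db library 6 and WT library 4 the r of miR-23a-3p and miR-27a-3p was 0.63 (permutation adjusted p = 0.0884), and that of miR-23b-3p and miR-27a-3p, of different clusters, 0.60 in place of 0.348 (permutation adjusted p = 0.0907). The differences between family and cluster pairs, and between genotypes, were not tested. All values in a library share its depth and total, and members of a family differ by few bases. The part of either in the correlations was not tested.

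**Figure D4:**
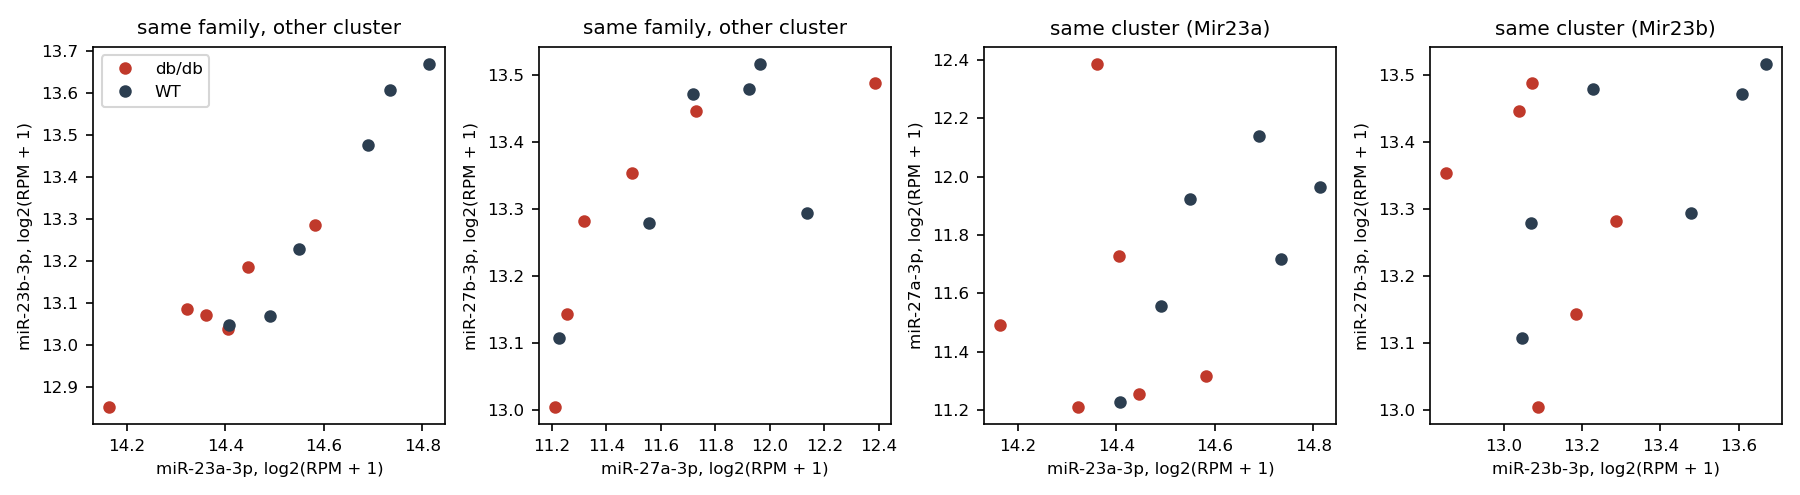
Levels of pairs of guide arms as log2(RPM + 1) on both axes, 1 point a library, db/db in red and WT in dark. Over all 12 libraries the family pairs from different clusters (the panels on the left) had r of 0.958 and 0.764. The neighbours within a cluster (the panels on the right) had r of 0.349 and 0.367. In WT libraries alone the neighbours had r of 0.737 and 0.717, above the 0.664 of the miR-27 family pair, and the differences were not tested.

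miR-24-3p, made by both clusters, had its highest r with miR-23a-3p over all libraries, and with miR-27a-3p once the genotype means were removed. Over all 12 libraries its r with miR-23a-3p was 0.727 (permutation adjusted p = 0.0264; rho 0.727, permutation adjusted p = 0.0324). This rested partly on the libraries at the ends and on genotype, being 0.600 without the 2 farthest libraries and 0.430 with the genotype means removed (permutation adjusted p = 0.227 and 0.326). Its r with miR-27a-3p was 0.661 and with miR-27b-3p 0.600 (permutation adjusted p = 0.0523 and 0.0684; rho 0.650 and 0.601, permutation adjusted p = 0.0640 and 0.0861). With the genotype means removed these were 0.846 and 0.778 (permutation adjusted p = 0.00320 and 0.00963), and without the 2 farthest libraries 0.491 and 0.217. Without db/db library 6 and WT library 4 the r with miR-27a-3p was 0.781 (permutation adjusted p = 0.0301). The other 3 pairs had r between 0.348 and 0.611 and did not pass.

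Outside the clusters, rows averaging 100 RPM or more whose log2 levels were most like those of the guide arms were ranked by Pearson r over the 12 libraries, as a description among 141 rows. The r values pool both genotypes and were not taken with the genotype means removed. For miR-24-3p the rows were miR-223-3p, a myeloid miRNA (r = 0.916), miR-22-3p of heart and skeletal muscle (0.838) and the endothelial miR-126a-3p (0.834). miR-223-3p was itself among the 4 rows wholly lower in db/db libraries, at 232 ± 48.6 RPM against 383 ± 78.3 RPM in WT libraries (SD, n = 6 each). Of the 6 leukocyte miRNAs, 3 had log2 fold changes below 0 and 3 above. For miR-23a-3p the rows were miR-143-3p of smooth muscle (0.936), miR-22-3p (0.924) and miR-21a-5p (0.915). miR-23b-3p had miR-22-3p (0.862), miR-143-3p (0.855) and miR-374b-5p (0.828). miR-27a-3p had miR-497a-5p, of the miR-15 family (0.874), miR-152-3p (0.826) and miR-378a-3p (0.791), and miR-27b-3p had miR-497a-5p (0.781), miR-152-3p (0.736) and the red cell miRNA miR-451a (0.716).

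Markers of heart muscle and of other cell types also varied between the libraries, and their part in the members' values was not tested. The 6 heart muscle miRNAs summed to 342010 to 443850 RPM in db/db and 372620 to 425470 RPM in WT libraries, most of it miR-133a-3p, the one with a value above 0. The other 5 of 6 had log2 fold changes below 0, down to -1.34 for miR-208a-3p (limma adjusted p = 0.504), and the median of the 6 was -0.26, beside -0.23 for the 5 guide arms. The 7 smooth muscle and fibroblast miRNAs summed to 27642 to 44803 RPM in db/db and 38194 to 53479 RPM in WT libraries, with 5 of 7 log2 fold changes below 0. The 3 endothelial miRNAs summed to 16719 to 26239 RPM in db/db and 20026 to 30425 RPM in WT libraries (2 of 3 below 0). The 5 red cell miRNAs summed to 35661 to 58147 RPM in db/db and 18648 to 41659 RPM in WT libraries (4 of 5 above 0). Most of this was miR-486a-5p and miR-486b-5p, whose nearly equal levels are not separate evidence. They averaged 21760 and 22209 RPM in db/db and 15389 and 15673 RPM in WT libraries. The log2 fold change was 0.26 for miR-451a (limma adjusted p = 0.717), 0.60 for the scarce miR-144-3p and -0.53 for miR-144-5p. The 6 leukocyte miRNAs summed to 3140 to 6905 RPM in db/db and 3550 to 5438 RPM in WT libraries (3 of 6 below 0). The liver miR-122-5p was at most 22.0 RPM in db/db and 27.5 RPM in WT libraries, and the 3 neural miRNAs summed to 66.0 to 160 RPM in db/db and 63.2 to 132 RPM in WT libraries. No marker passed limma's threshold.

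Other miRNAs of the settings in which these clusters are studied gave few calls. Of 20 vascular and angiogenic miRNAs, 0 passed limma in either direction, 11 had values below 0 and the median log2 fold change was -0.10, beside -0.04 over all rows. The 3 most abundant were miR-378a-3p at -0.10 ± 0.12, miR-126a-3p at -0.30 ± 0.14 and miR-92a-3p at 0.51 ± 0.15 (log2 differences with standard errors, db/db minus WT; limma adjusted p = 0.733, 0.504 and 0.109). Of 22 miRNAs of cardiac hypertrophy and fibrosis, 1 was lower and 0 were higher by limma, 13 had values below 0 and the median was -0.22. The one that fell was miR-22-3p, at 11882 ± 1677 RPM in db/db and 17708 ± 3699 RPM in WT libraries (SD, n = 6 each; limma adjusted p = 0.0466), the only row called among all 646; 0 rows were called without db/db library 1, 2 or 3 or without WT library 2, 4, 5 or 6, and 0 lower and 2 higher after median-of-ratios scaling. The 3 most abundant of this list, miR-133a-3p, miR-1a-3p and miR-30a-5p, stood at 0.07 ± 0.11, -0.25 ± 0.14 and -0.19 ± 0.12 (log2 differences with standard errors; limma adjusted p = 0.789, 0.716 and 0.717).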

How the data were processed

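Small RNA libraries were made from total RNA with adapters on both ends and gel purification, per the labels' protocols. The authors deposited 1 table of values named TPM, whose columns sum to 1000000 and are whole multiples of 1 read, which makes the deposited unit RPM. Per the submitters' processing notes the genome was GRCm39; the sources used here give no aligner, counter or annotation. Reads were recovered with 100% of values whole within 0.01 of a read.

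Rows averaging 1 RPM or more were fitted with limma 3.58.1 (R 4.3.3, abundance trend) on log2(RPM + 1), two-sided with Benjamini-Hochberg adjustment over 646 rows. The fit was checked on simulated data whose differences were all larger than those of the guide arms, so the check does not cover differences of their size. Alternatives included edgeR 4.0.16 and DESeq2 1.42.0 on recovered reads. The fit with replicate numbers as a block was an alternative, as nothing in the labels pairs samples. Correlations used 100000 resamples. Members, lists and alternatives were chosen with earlier results of these data known. Named rows were all members, rows sharing their seed, the 3 most like each guide arm, and the 3 most abundant of each pathway list; miR-22-3p, miR-223-3p and the marker rows were also reported. Plots were made with matplotlib 3.10.9 under Python 3.11.15.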

Additional observations from a re-analysis of the deposited data

Results flagged for a closer look

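The 10 members, 6 ratios and their summed share were searched in each genotype, 34 groups of 6 values, for a library far from the others, where chance flags about 1 in 20 groups. Among db/db libraries, miR-27a-3p reached 5352 RPM in library 6 and the next highest value was 3391 RPM, which leaves a gap of 0.657 of the whole range. The log2 ratio of miR-27b-3p over miR-27a-3p was 1.10 in db/db library 6 and at least 1.72 in the other db/db libraries, with a gap of 0.715 of the whole range. Both come from the same values of miR-27a-3p in the shallowest library, where its level still rested on 2209 reads.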

How the results depend on the processing

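The 10 members were refitted under 28 other settings, 12 of which leave out 1 library. Of the 280 values 275 kept their direction and were not seen to cross the threshold. DESeq2 gave an adjusted p to only 6 of the 10 members, and its values for the others are counted here by direction alone. The number of rows called was 1 in the fit reported and 0 with 0.1 or 10 RPM added in place of 1, without the filter or with one of 10 RPM, with quantile normalisation, with no trend, or without db/db 6 and WT 4. It was 2 after median-of-ratios scaling (2 higher, 0 lower), 3 by edgeR (2 higher, 1 lower), 8 by DESeq2 (6 higher, 2 lower), 3 within numbers 4 to 6 (2 higher, 1 lower) and 10 with a factor for numbers 1 to 3 against 4 to 6 (4 higher, 6 lower), beside 0 higher and 1 lower in the fit reported. Leaving out 1 library gave 0 to 7 calls and 0 members: 0 without db/db 1, 2 or 3 or WT 2, 4, 5 or 6, 3 without db/db 4, 6 without WT 1 or WT 3, and 7 without db/db 5. The number of members called was 1 in place of 0 with the factor of numbers, miR-24-3p (limma adjusted p = 0.0480; -0.37 within 1 to 3, -0.34 within 4 to 6). The cause was not tested.

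With the replicate number as a block limma called 9 rows (3 higher, 6 lower) and 1 member, miR-24-3p (adjusted p = 0.0234), and 0 ratios passed (miR-23a-5p over miR-23a-3p, exact permutation adjusted p = 0.375). Libraries of the same number had deviations correlated at -0.05 to 0.12, and 1 of 6 correlated best with its own number. The correlation took in all 646 rows, of which 147 averaged 100 RPM or more. Scarce rows carry counting noise, so it cannot decide whether the numbers pair the samples.

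Signs turned for miR-27a-5p without db/db 4 (0.048; -0.44 to 0.048 over single libraries left out) and within numbers 1 to 3 (0.25), and for miR-27b-5p within 4 to 6 (-0.37). Among ratios, that of miR-27a-5p over miR-27a-3p turned positive without db/db 4, db/db 6 or WT 1 (-0.28 to 0.18 over single libraries left out) and to 0.34 within 1 to 3. Within 1 to 3, miR-23b-3p over miR-23a-3p was 0.064 and miR-24-2-5p over miR-24-1-5p was -0.19, and within 4 to 6 miR-27b-5p over miR-27b-3p was -0.25. Leaving out 1 library gave 0 to 1 ratios past the threshold. The correlation of miR-23b-3p with miR-27b-3p was -0.0185 without the 2 farthest libraries. Depth limits the 5p arms other than miR-24-2-5p, at 0 to 89 reads a library.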
